A study of Mus musculus with 8 samples.

Results

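The PGC-1 coactivators and the factors they work through were followed in the tibialis anterior, a fast-twitch leg muscle, of mice with and without the homeodomain factor Prep1 in skeletal muscle. The 10 genes are Ppargc1a, Ppargc1b, Pprc1, Esrra, Nrf1, Gabpa, Tfam, Tfb1m, Tfb2m and Polrmt. They were taken by gene name from the 27398 gene names of the array, and 21 non-control probes carry those names. Of these, 20 exceeded background on 4 or more of the 8 arrays, as scored by the scanner software, and were tested, and 1 Tfb1m probe was not.

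Total RNA of 8 male C57BL/6 mice aged 8 weeks was labelled with Cy3 and hybridised to 1-colour Agilent arrays, 1 array per mouse. The comparison set 4 Prep1deltaSM mice, in which Prep1 (gene symbol Pknox1) was ablated in skeletal muscle, against 4 mice labelled Prep1f/+, a notation for a single floxed allele beside a wild-type one. The design text of the series calls these controls flox mice, so their second allele is not settled here. The promoter that drives the recombinase is not given in the sources used here, and a whole muscle also holds vessels, nerve, fat and connective tissue. In such bulk RNA, fewer cells of a type and less RNA per cell cannot be told apart. Earlier work by others linked Prep1 to PGC-1 alpha and its repressor p160 MYBBP1A in muscle, and these regulators bear on that link.

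Mitochondria are built from proteins of both the nuclear and the mitochondrial genome. PGC-1 coactivators bind no DNA themselves and act by docking on transcription factors such as ERR alpha, NRF1 and GABP, which stand at the promoters of nuclear genes for respiration. Among the genes so controlled are Tfam, Tfb1m, Tfb2m and Polrmt, whose products enter the mitochondrion and act in the expression of its genome. In muscle PGC-1 alpha transcript is induced by exercise and by fasting.

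Between 23787 and 27123 of the 43379 non-control spots of an array were well above background, 0 were saturated, and the 75th percentile signals lay between 139 and 197. Values below are log2 signal relative to that percentile of the same array, so they compare arrays for 1 probe. Between probes they compare brightness of signal and not amounts of transcript. The 4 slides each held 1 array of each group. Fast muscle markers (8 of 8 tested, among them Acta1, Myh4 and Ckm) were bright on all arrays, with a median difference of 0.01. Adipocyte markers were lower in Prep1deltaSM for 7 of 7 tested, with a median of -1.03, and their mean level, centred over the 8 arrays, ran from -2.08 to 1.01 in Prep1deltaSM and from -0.48 to 1.05 in Prep1f/+. Slow fibre markers were lower for 8 of 8 (median -0.48) and leukocyte markers for 7 of 7 (median -0.47). The centred mean of the slow fibre markers ran from -0.80 to 0.37 in Prep1deltaSM and from -0.40 to 1.29 in Prep1f/+. Their summed unlogged level did not overlap (659 to 719 against 765 to 812), though such a sum is weighted to the brightest genes. Taken singly, 0 of the 8 slow fibre genes separated the groups, and 0 had an unadjusted limma p under 0.05. For leukocyte markers the centred mean ran from -0.67 to 0.14 against -0.01 to 0.48. Connective tissue markers were lower for 7 of 8, with a median of -0.37. Read by the brightest probe of each gene, as these markers were, 10044 of 16016 genes were lower. None of these marker genes passed the adjusted threshold by limma, and their part in the values of the biogenesis regulators was not tested. The ablated gene itself, Pknox1, differed by -1.76 ± 0.13 (SE) and was the 1 probe of 24488 past a limma adjusted p of 0.05 (adjusted p = 0.0102). It missed that threshold with slide as a block (adjusted p = 0.095) and without Prep1f/+ replicate 1, 2 or 3 or Prep1deltaSM replicate 2 (up to 0.105), and without a filter on dim probes (0.051). With normexp background correction and quantile normalization its difference was -0.89.

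The array reads several of these transcripts at more than 1 place, and the results turn on which place is read. The first 30 of the 60 bases of the probes concerned follow, as the array files give them, with file positions in mm9 (the strand of each gene is the one in the files). Capitals mark bases that also occur in the promoter of the same gene.

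Ppargc1a A_51_P279038 (chr5:51848928-51848987, minus strand): ccccttcaaatggcagcatttccatgaaga
Ppargc1a A_52_P5945 (chr5:51846897-51846956, minus strand): attcatttatcaccagcatattgtgttctg
Esrra A_51_P248580 (chr19:6985599-6985658, minus strand): atgccctgcagagcaataacactatattta
Esrra A_52_P198949 (chr19:6991170-6991229, minus strand): ggggaggtgaaactgacttggtcagaactg
Tfb2m A_51_P374499 (chr1:181458235-181458294, minus strand): tcttttattatgttgaagtggattatcagg
Tfb2m A_52_P69325 (chr1:181459354-181459413, minus strand): aatgtatcctcacgacttcaaaaaactttt
Tfam A_51_P493720 (chr10:70691103-70691162, minus strand): ctttgagccttgacagaagatgatgctgag
Tfam A_52_P351785 (chr10:70688866-70688925, minus strand): cctctgaatttaaagctggtgttagcatac
Tfam A_52_P595104 (chr10:70688212-70688232, minus strand): TCCCTAGCCTCAGGCTCCGCCCCCTCCTCG

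The last of these stands apart in its letters. Of its 60 bases 78.3% are G or C, against a median of 40% over all probes, and 0.0267% of probes have a higher share. The files place it over 21 bases only, a span shorter than 60 bases that 852 of 40482 positioned probes (2.10%) share. Its bases 1 to 39 match the Tfam promoter of the RefSeq table (GRCm38.p6) from 146 to 108 bases before the transcription start, and its bases 37 to 60 match from 109 to 86 bases before it, on the strand of the gene (chr10:71238130-71238190 in that build). Whether a transcript carries this stretch, and in which exon or UTR the other probes lie, was not settled here. Shorter stretches of Tfam A_52_P595104, of 16 to 19 bases, also occur in promoters of other genes, among them Acss2 and Ankrd37 (19 bases each). Of the 21 probes, 17 have a RefSeq accession that the table assigns to the same gene. The other 4 have another kind of accession: this Tfam probe, Esrra A_52_P198949, Ppargc1b A_52_P293222 and Tfb1m A_51_P215324.

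Ablation of Prep1 moved none of the 20 tested probes past an adjusted p of 0.05 (limma, Benjamini-Hochberg over 24488 probes, of which 0.00408% passed). The smallest adjusted p was 0.143, for a Tfb2m probe. In sign the probes were split, 10 higher and 10 lower in Prep1deltaSM, with a median difference of -0.01 against -0.02 for all probes and a range of -0.31 to 0.55. At an unadjusted p under 0.05, 3 of the 20 were higher, where 9.66% of all probes were, and 0 were lower, where 8.11% were. With slide as a block those counts were 2 higher (Tfb2m A_52_P69325 and Esrra A_52_P198949) and 1 lower (Ppargc1b A_52_P293222), again with 0 past the adjusted threshold. In that blocked fit 2299 of all 24488 probes were higher and 1957 lower at the same unadjusted level. The groups did not overlap for 1 probe, higher in Prep1deltaSM, beside 6.42% of all probes, and for 0 in the other direction, beside 5.35%. By the brightest probe of each gene, 3 genes lay higher and 7 lower (their median -0.08, that of 16016 genes -0.07). Tfam counted as lower there through A_52_P595104, the probe that matches its promoter, while its other probes differed by 0.04 and 0.02. A gene's values thus depended on its probe, and each probe is given below.

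**Figure D1:**
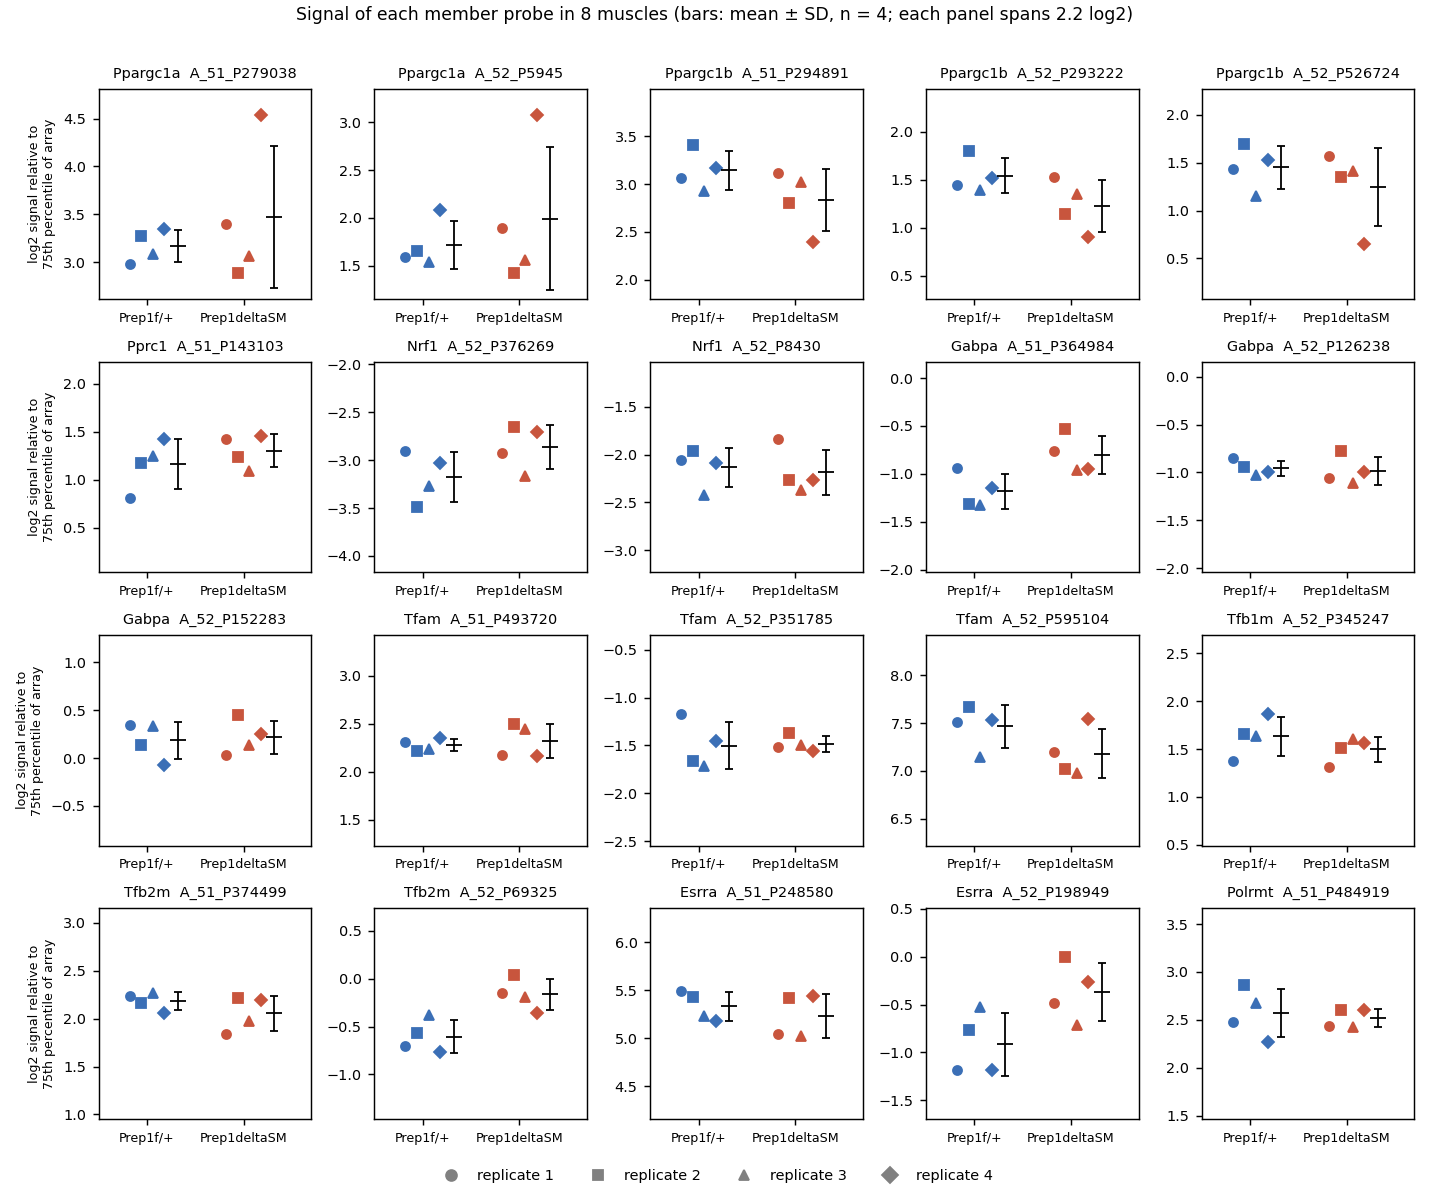
Log2 signal relative to the 75th percentile of the array (vertical axis) for each of the 20 tested probes in Prep1f/+ (blue) and Prep1deltaSM (red) muscle; symbols are replicates, bars the mean ± SD (n = 4), and every panel spans the same log2 range. The groups separate fully only for Tfb2m A_52_P69325, and Prep1deltaSM replicate 4 stands above all other arrays at both Ppargc1a probes and below them at all 3 Ppargc1b probes.

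Ppargc1a encodes PGC-1 alpha, the coactivator that exercise and fasting induce. Probe A_51_P279038 read 2.98, 3.28, 3.08 and 3.34 in Prep1f/+ replicates 1 to 4 and 3.40, 2.89, 3.07 and 4.54 in Prep1deltaSM replicates 1 to 4. Probe A_52_P5945 read 1.59, 1.66, 1.54 and 2.09 against 1.90, 1.43, 1.56 and 3.07. At both, Prep1deltaSM replicate 4 was the highest of the 8 arrays while the other 3 Prep1deltaSM values lay in or near the Prep1f/+ range, with replicate 2 below all of Prep1f/+ at both probes and replicate 1 above all of it at A_51_P279038. The differences were 0.30 ± 0.33 (SE, 95% interval -0.44 to 1.05, limma adjusted p = 0.655) and 0.27 ± 0.34 (-0.50 to 1.05, adjusted p = 0.703). Without Prep1deltaSM replicate 4 they turned to -0.05 and -0.09. The within-group spread was among the larger ones of the array, with 7.49% and 6.72% of probes more variable. Within slides 1 to 4 the first probe differed by 0.12, -0.19, 1.56 and -0.27, and replicate 4 lies on slide 3.

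Ppargc1b encodes PGC-1 beta, a coactivator of the same family that drives respiration genes through ERR proteins and is less tied to exercise. Probe A_51_P294891 read 3.06, 3.40, 2.93 and 3.17 in Prep1f/+ and 3.12, 2.80, 3.02 and 2.39 in Prep1deltaSM. For A_52_P293222 the values were 1.45, 1.81, 1.39 and 1.52 against 1.53, 1.14, 1.35 and 0.90, and for A_52_P526724 they were 1.43, 1.69, 1.15 and 1.53 against 1.57, 1.35, 1.41 and 0.66. Here Prep1deltaSM replicate 4 was the lowest of the 8 arrays at all 3 probes, and the groups overlapped. The differences were -0.31 ± 0.17 (adjusted p = 0.393), -0.31 ± 0.15 (0.335) and -0.21 ± 0.21 (0.631, limma). Within every slide the Prep1deltaSM array was lower at the first 2 probes, from -0.13 to -0.67 at A_51_P294891. Without Prep1deltaSM replicate 4 the 3 differences shrank to -0.16, -0.20 and -0.01, and with normexp and quantile normalization to -0.18, -0.18 and -0.12.

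That muscle, Prep1deltaSM replicate 4, thus held the most Ppargc1a and the least Ppargc1b signal of the 8. Relative to the Prep1f/+ mean of each probe, it lay 1.37 and 1.36 higher on the log2 scale at the Ppargc1a probes, and at -0.75, -0.64 and -0.80 at the Ppargc1b probes. Nr4a3, a nuclear receptor gene induced by contraction, was also highest in it, at 0.62 against -3.04 to -0.75 in the other Prep1deltaSM muscles and -4.96 to -1.02 in Prep1f/+. Egr1, an immediate early gene, was not: it read -0.23 there, and -0.40 to 1.97 in the other Prep1deltaSM muscles. Over the 16 tested genes of fasting, glucocorticoid and activity response, the centred mean was 0.41 in this muscle. It was nearly as high, at 0.38, in Prep1f/+ replicate 4. The centred mean of the adipocyte markers in this muscle was -1.44, that of the leukocyte markers -0.67 and that of the connective tissue markers -0.66, the last 2 being the lowest of the 8 arrays. Their part in its Ppargc1a and Ppargc1b values was not tested.

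**Figure D2:**
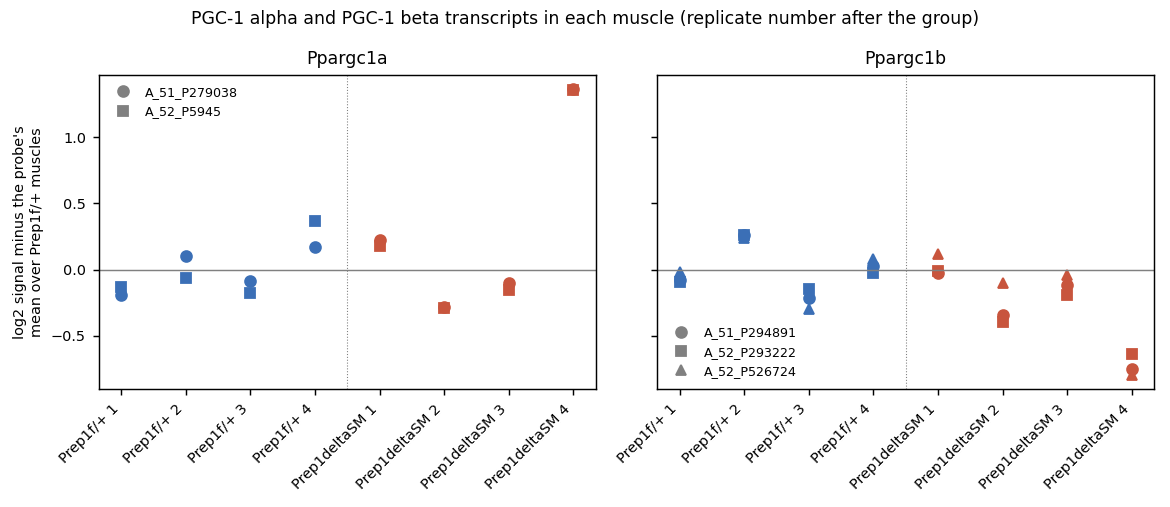
Log2 signal of the 2 Ppargc1a probes (left) and the 3 Ppargc1b probes (right) in each muscle, relative to the mean of that probe over the 4 Prep1f/+ muscles (horizontal line at 0). Probes of 1 gene move together from muscle to muscle, and Prep1deltaSM replicate 4 lies at 1.37 and 1.36 for Ppargc1a and between -0.80 and -0.64 for Ppargc1b.

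The genes whose brightest probe ran most like that of Ppargc1a over the 8 arrays were Dos, Gpr157, Hey1, Lin7a and St8sia1. The measure was the mean absolute difference between the 2 profiles after each was centred on its own mean, and it was 0.090, 0.116, 0.141, 0.146 and 0.152 log2. Hey1, a basic helix-loop-helix repressor downstream of Notch, read 0.64, 0.67, 0.86 and 1.24 in Prep1f/+ and 1.19, 0.66, 0.73 and 1.92 in Prep1deltaSM. Like Ppargc1a, each of the 5 was highest in Prep1deltaSM replicate 4. They were chosen for closeness to the Ppargc1a profile, so that shared peak is not a separate result. The other biogenesis regulators were far from this profile: the nearest, Pprc1, ranked 246 (0.271) and Ppargc1b ranked 11744 (0.453).

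Pprc1 encodes PRC, the family member that serum and growth signals induce in dividing cells. Its probe A_51_P143103 read 0.80, 1.17, 1.25 and 1.42 in Prep1f/+ and 1.42, 1.24, 1.09 and 1.46 in Prep1deltaSM. Prep1f/+ replicate 1 was the lowest array, and the other 7 values were mixed between the groups. The difference was 0.14 ± 0.15 (adjusted p = 0.649, limma), and with single arrays left out it ran from 0.02 (without Prep1f/+ replicate 1) to 0.23 (without Prep1f/+ replicate 4).

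Esrra encodes ERR alpha, the orphan nuclear receptor through which PGC-1 coactivators reach many respiration genes. Its brighter probe, A_51_P248580, read 5.50, 5.43, 5.23 and 5.18 in Prep1f/+ and 5.04, 5.41, 5.02 and 5.44 in Prep1deltaSM, a difference of -0.10 ± 0.14 (adjusted p = 0.72, limma). The dimmer probe, A_52_P198949, read -1.19, -0.76, -0.52 and -1.19 against -0.48, 0.00, -0.71 and -0.27. At that probe 3 of the 4 Prep1deltaSM muscles lay above every Prep1f/+ muscle and replicate 3 did not. The difference was 0.55 ± 0.20 (95% interval 0.09 to 1.01, limma p = 0.0239 unadjusted and 0.214 adjusted; exact two-sided permutation p = 0.0571), with 0.28, 0.52, 0.92 and 0.48 within slides 1 to 4. The dimmer probe carries the accession AK046588 and lies 5571 bases upstream of the other in the direction of transcription.

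Nrf1, nuclear respiratory factor 1, binds GC-rich palindromes in promoters of respiration genes. Probe A_52_P376269 read -2.91, -3.49, -3.27 and -3.03 in Prep1f/+ and -2.93, -2.66, -3.17 and -2.71 in Prep1deltaSM, a difference of 0.31 ± 0.16 (adjusted p = 0.358, limma). Probe A_52_P8430 read -2.06, -1.96, -2.42 and -2.09 against -1.84, -2.26, -2.37 and -2.26, a difference of -0.05 ± 0.15 (adjusted p = 0.892). At the first the groups overlapped, with Prep1deltaSM replicate 3 below Prep1f/+ replicates 1 and 4, and the difference was 0.05 with normexp and quantile normalization. At the second the groups overlapped too.

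Gabpa encodes the DNA-binding subunit of GABP, also called NRF2, an ETS factor of mitochondrial and ribosomal gene promoters. Probe A_51_P364984 read -0.94, -1.32, -1.33 and -1.15 in Prep1f/+ and -0.76, -0.53, -0.96 and -0.95 in Prep1deltaSM. Prep1f/+ replicate 1 reached into the Prep1deltaSM range and the other 3 Prep1f/+ values lay below it. The difference was 0.38 ± 0.13 (limma p = 0.0187 unadjusted and 0.197 adjusted; exact permutation p = 0.0857). Probe A_52_P126238 read -0.85, -0.94, -1.03 and -1.00 against -1.05, -0.78, -1.11 and -0.99, and probe A_52_P152283 read 0.34, 0.14, 0.33 and -0.07 against 0.03, 0.44, 0.14 and 0.25. These probes differed by -0.03 ± 0.10 and 0.03 ± 0.13, with the groups mixed.

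Tfam packages mitochondrial DNA and opens its promoters. Probe A_51_P493720 read 2.31, 2.22, 2.24 and 2.35 in Prep1f/+ and 2.17, 2.49, 2.44 and 2.16 in Prep1deltaSM, a difference of 0.04 ± 0.11 (95% interval -0.20 to 0.28). Probe A_52_P351785 read -1.18, -1.66, -1.72 and -1.45 against -1.51, -1.37, -1.49 and -1.56, a difference of 0.02 ± 0.13. Both placed the 2 groups over each other. The third probe, A_52_P595104, whose letters match the promoter, read 7.51, 7.66, 7.15 and 7.54 against 7.19, 7.02, 6.98 and 7.54, a difference of -0.28 ± 0.16 (adjusted p = 0.389, limma). It is brighter than all but 1.05% of probes, so a rule that keeps the brightest probe of a gene takes its value for Tfam.

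Tfb1m is an rRNA methyltransferase of the mitochondrial small ribosomal subunit, and its relative Tfb2m is the factor that melts the promoter for the mitochondrial RNA polymerase. For Tfb1m, probe A_52_P345247 read 1.37, 1.66, 1.63 and 1.87 in Prep1f/+ and 1.32, 1.51, 1.60 and 1.56 in Prep1deltaSM, a difference of -0.14 ± 0.12 (adjusted p = 0.592, limma) with overlapping groups. Its other probe, A_51_P215324 (accession AK028212), was not well above background on any array, so no fold is given. For Tfb2m, probe A_51_P374499 read 2.24, 2.16, 2.27 and 2.06 against 1.84, 2.22, 1.98 and 2.19, a difference of -0.13 ± 0.11 (adjusted p = 0.573). Probe A_52_P69325, 1119 bases upstream of it, read -0.71, -0.57, -0.38 and -0.76 against -0.15, 0.04, -0.19 and -0.36. At this upstream probe all 4 Prep1deltaSM values lay above all 4 Prep1f/+ values, by a narrow margin between Prep1deltaSM replicate 4 and Prep1f/+ replicate 3. The difference was 0.44 ± 0.12 (95% interval 0.16 to 0.72, 1.36-fold), with limma p = 0.00585 unadjusted and 0.143 adjusted, and an exact two-sided permutation p of 0.0286, the smallest that the 70 assignments of 8 arrays allow. Within slides 1 to 4 it was 0.41, 0.42, 0.35 and 0.57.

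Polrmt is the RNA polymerase of the mitochondrion. Probe A_51_P484919 read 2.47, 2.86, 2.68 and 2.27 in Prep1f/+ and 2.44, 2.61, 2.43 and 2.60 in Prep1deltaSM, a difference of -0.05 ± 0.13 (95% interval -0.36 to 0.25; adjusted p = 0.868, limma). The Prep1deltaSM values lay inside the range of Prep1f/+, and the sign of the difference turned with quantile normalization (0.0065).

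**Figure D3:**
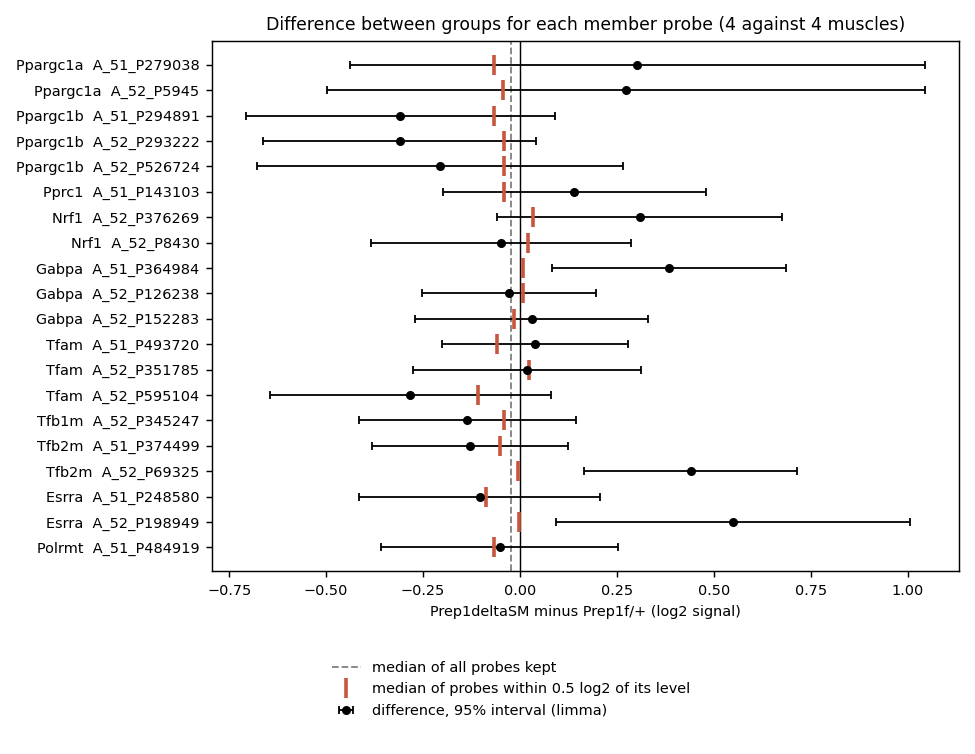
Difference between groups (Prep1deltaSM minus Prep1f/+, log2 signal) for each of the 20 tested probes with its 95% interval from limma (4 against 4 muscles); the dashed line is the median of all probes and each red tick the median of probes within 0.5 log2 of that probe's level. Only the intervals of Gabpa A_51_P364984, Tfb2m A_52_P69325 and Esrra A_52_P198949 leave 0 out, before adjustment over probes.

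The 3 probes with an unadjusted p under 0.05 share features that the choice of genes did not use. Esrra A_52_P198949, Tfb2m A_52_P69325 and Gabpa A_51_P364984 each lie upstream of another probe of the same gene, and each is dimmer than that other probe. With normexp and quantile normalization their differences were 0.34, 0.27 and 0.22. Gabpa A_52_P126238 also lies upstream of a brighter probe of its gene, A_52_P152283 (mean -0.97 against 0.20), but differed by -0.03. A comparison of the 2 most distant probes of a gene was therefore added after these values were seen. It took 4071 genes with probes 100 to 100000 bases apart and file positions of the full 60 bases, which leaves out the Tfam probe that matches the promoter. The upstream minus downstream difference between the groups was 0.65 ± 0.19 for Esrra, 0.57 ± 0.14 for Tfb2m, 0.36 ± 0.21 for Nrf1 and 0.35 ± 0.15 for Gabpa. For Ppargc1b it was 0.10 ± 0.12, for Ppargc1a 0.03 ± 0.10 and for Tfam 0.02 ± 0.13 (SE). The groups did not overlap for Esrra and Tfb2m, 2 of the 7 genes, where 12.4% of the 4071 genes did not overlap in that direction and 2.82% in the other. Neither passed an adjusted p of 0.05 (limma adjusted p = 0.0987 and 0.0709), and 0% of the 4071 genes did.

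The same lean ran through the array. Of the 4071 genes, 2696 (66.2%) had the upstream probe relatively higher in Prep1deltaSM, with a median of 0.06 at upstream and -0.04 at downstream probes. Per array, the median upstream minus downstream signal, centred, was -0.05, -0.05, -0.13 and 0.02 in Prep1f/+ replicates 1 to 4 and 0.12, 0.04, 0.04 and 0.01 in Prep1deltaSM (exact two-sided permutation p = 0.0571). Prep1f/+ replicate 4 lay inside the Prep1deltaSM range and the other 3 Prep1f/+ arrays below it. The lean went with brightness: where the upstream probe was the dimmer of the pair (2843 genes) 74.9% were relatively higher, with a median of 0.17, and where it was the brighter (1228 genes) 46.1% were, with a median of -0.02. In Esrra, Tfb2m, Nrf1 and Gabpa the upstream probe was the dimmer one, and in Ppargc1a and Tfam the brighter. In Ppargc1b the upstream probe was slightly the dimmer (mean 1.35 against 1.39), with its smaller difference of 0.10 given above. Over all tested probes, the median difference ran from 0.03 in the dimmest of 8 equal bins of signal to -0.08 in the brightest. RNA integrity was measured per the labels but its values are not given in the sources used here, and position, brightness and a change of transcript form cannot be told apart in these pairs.

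**Figure D4:**
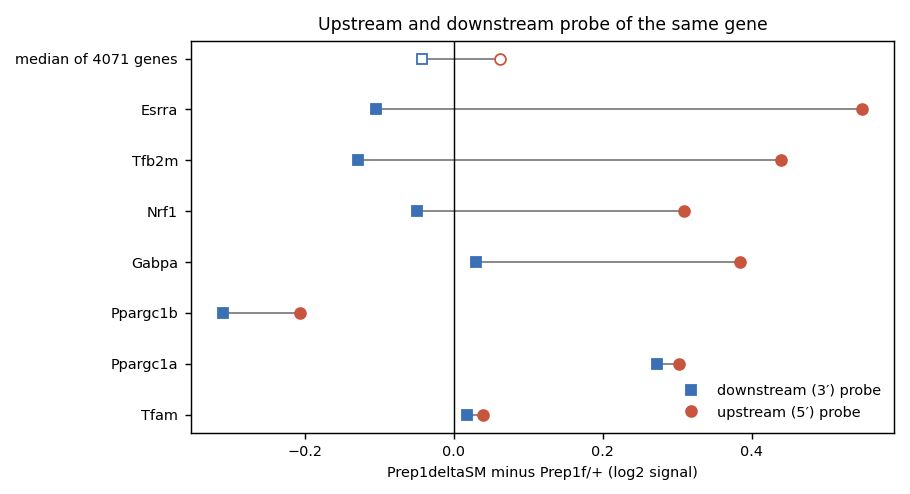
Difference between groups (Prep1deltaSM minus Prep1f/+, log2 signal) at the upstream (red circle) and downstream (blue square) probe of the 7 biogenesis regulators with such a pair, and the median over 4071 genes (open symbols, 0.06 and -0.04). The 2 probes lie far apart for Esrra, Tfb2m, Nrf1 and Gabpa and close together for Ppargc1a and Tfam.

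**Figure D5:**
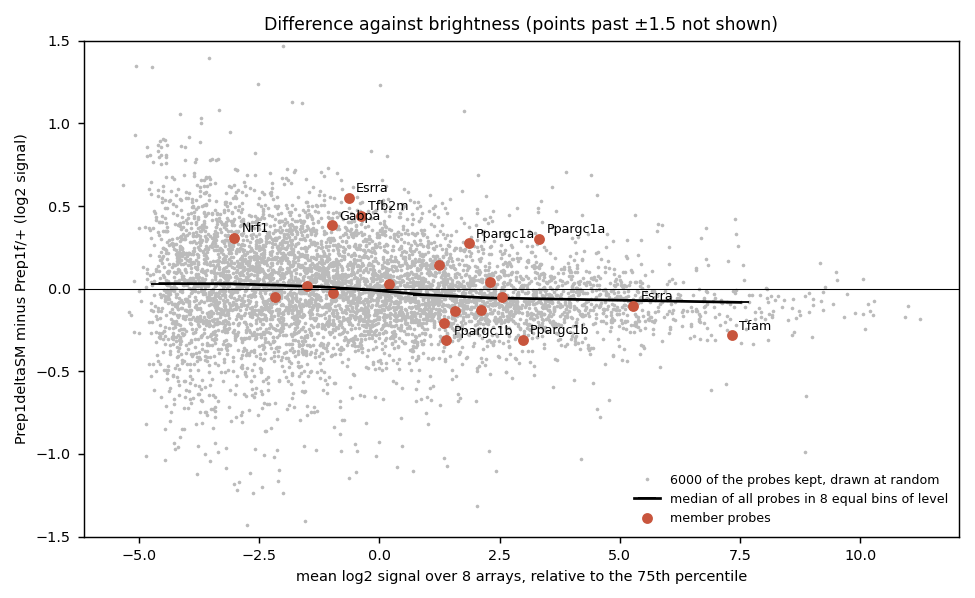
Difference between groups (log2 signal) against the mean log2 signal over 8 arrays for the tested probes of the biogenesis regulators (red) and 6000 of all tested probes drawn at random (grey); the line joins the medians of 8 equal bins of signal, from 0.03 to -0.08. The Esrra, Tfb2m and Gabpa probes with the largest positive differences lie near the middle of the signal range, and the Tfam probe that matches the promoter lies at its bright end.

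Binding motifs of the same factors stand in some of their own promoters, which is a description of letters and not of occupancy. RefSeq promoter windows (250 bases before to 50 after the start, GRCm38.p6) matched 9 of the 10 genes, with 10 windows. The NRF1 core GCATGCGC, searched on both strands, occurred in 3 of them (Esrra, Polrmt and Tfb2m) and in 2.71% of all 32851 windows. The GABP core CCGGAAG occurred in 3 (Gabpa, Polrmt and Tfam) and in 8.86% of all. The ERR element TCAAGGTCA (0.423% of all) and the cyclic AMP element TGACGTCA (1.79%) occurred in 0 of the 10. The PREP1 core TGACAG occurred in 2 (Esrra and Tfb1m), with 19.2% of all windows holding it. Stretches of 30 bases around the NRF1 and GABP cores of the genes for mitochondrial transcription and of Esrra, with the core in capitals as it reads on the strand of the gene, show where these sit.

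Polrmt, GABP core (chr10:79746606-79746635, minus strand): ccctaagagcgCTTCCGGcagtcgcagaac
Polrmt, NRF1 core (chr10:79746696-79746725, minus strand): agagtatttctGCGCATGCtctcttgccgc
Tfam, GABP core (chr10:71238073-71238102, minus strand): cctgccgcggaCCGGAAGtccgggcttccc
Esrra, NRF1 core (chr19:6921824-6921853, minus strand): ccccctgttttGCATGCGCaggccggcccc

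Genes around the regulators were read by their brightest probe, and none of the 120 in 6 lists passed an adjusted p of 0.05 (limma; 0.00624% of 16016 genes did). At an unadjusted p under 0.05, 5.47% of all genes were higher and 10.1% lower in Prep1deltaSM. Among 22 genes that signal to PGC-1, 10 were higher and 12 lower (median -0.04), with 0 higher and 3 lower at that unadjusted level. Prkaa1, a catalytic subunit of the energy sensor AMPK, read 1.30, 1.16, 1.32 and 1.04 in Prep1f/+ and 0.90, 0.90, 0.92 and 0.85 in Prep1deltaSM. The groups did not overlap (6.74% of all genes were lower and 3.72% higher without overlap), the difference was -0.31 ± 0.09 (adjusted p = 0.152), and its other probe differed by -0.34. Kat2a, an acetyltransferase that represses PGC-1 alpha, differed by -0.38 ± 0.27 (-0.58 to -0.23 with single arrays left out, -0.09 with normexp and quantile normalization), the deacetylase Sirt1 by 0.24 ± 0.12 and the AMPK subunit Prkab1 by 0.20 ± 0.14.

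Partners and corepressors numbered 22, of which 11 were higher and 11 lower (median 0.02; 1 higher and 2 lower at the unadjusted level). Nrip1, the corepressor RIP140 of respiration genes, read 0.49, 2.07, 1.67 and 1.99 in Prep1f/+ and 2.09, 2.23, 2.21 and 2.49 in Prep1deltaSM. The groups did not overlap, though Prep1f/+ replicate 1 stood far below all others, and the difference was 0.70 ± 0.32 (adjusted p = 0.304), or 0.34 without that replicate. Its other probes differed by 0.59 and 0.26. Gabpb1, the subunit that gives GABP its activation domain, differed by -0.32 ± 0.10 without overlap (adjusted p = 0.174). With normexp and quantile normalization that difference was -0.07, and the other Gabpb1 probe differed by 0.54. Ppard differed by 0.63 ± 0.40 (0.20 without Prep1deltaSM replicate 4, 0.16 with normexp and quantile normalization), and the ERR genes Esrrb and Esrrg by -0.48 ± 0.24 and -0.36 ± 0.18. Mybbp1a, which encodes the repressor p160 of PGC-1 alpha, read 1.08 to 1.23 in Prep1f/+ and 1.08 to 1.31 in Prep1deltaSM, a difference of 0.06 ± 0.09.

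Of 18 genes for replication and upkeep of mitochondrial DNA, 10 were higher and 8 lower (median 0.02; 3 higher and 1 lower at the unadjusted level). Atad3a, a membrane protein of the nucleoid, differed by 0.36 ± 0.11 and Top1mt, the mitochondrial topoisomerase, by -0.22 ± 0.10, each without overlap (adjusted p = 0.17 and 0.281). The nuclease Exog, well above background on 6 of the 8 arrays, differed by 0.56 ± 0.21, but by 0.08 with normexp and quantile normalization. The nucleoside kinase Dguok differed by -0.15 ± 0.09, and the polymerase subunits Polg and Polg2 by 0.15 ± 0.09 and -0.11 ± 0.10. Among 16 genes of mitochondrial RNA processing, 10 were higher and 6 lower (median 0.08), with 0 in either direction at the unadjusted level by the brightest probe. The helicase Supv3l1 differed by 0.21, Fastkd5 by 0.18, Fastk by -0.13 and the exonuclease Pnpt1 by -0.10. As in the regulators, other probes departed from these: 0.64 for Fastkd5 and 0.46 for Pnpt1 (limma adjusted p = 0.112 and 0.156).

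Nuclear targets of PGC-1, NRF1 and ERR leaned lower in sign, as all genes did by this reading: 6 of 26 lay above 0 and 20 below (their median -0.08, that of all genes -0.07), with 0 higher and 1 lower at the unadjusted level. That one was Mb, the oxygen carrier myoglobin, at -0.40 ± 0.15 (adjusted p = 0.231). With quantile normalization Mb differed by -0.27, and in the main fit probes of like brightness had a median difference of -0.11. The slow fibre markers were also lower for 8 of 8. Their summed unlogged level was 659 to 719 in Prep1deltaSM and 765 to 812 in Prep1f/+, though 0 of the 8 separated the groups singly. Among Prep1f/+ muscles Mb was lowest in replicate 3 (9.46). The centred mean of the slow fibre markers was highest there (1.29), and their summed level was 770. The part of slow fibres in the Mb values was not tested. The fatty acid dehydrogenase Acadm differed by -0.23 ± 0.14, cytochrome c (Cycs) by -0.09 ± 0.12, citrate synthase (Cs) by -0.02 ± 0.10, the complex II subunit Sdhb by 0.11 ± 0.12 and the angiogenic factor Vegfa by 0.20 ± 0.21. With single arrays left out Sdhb ranged from 0.03 (without Prep1deltaSM replicate 2) to 0.19, and Vegfa from 0.06 (without Prep1deltaSM replicate 4) to 0.36. The sign of Cs turned with quantile normalization (0.070).

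Genes of fasting, glucocorticoids and activity, which share inducers with Ppargc1a, spread most: 5 of 16 were higher and 11 lower (median -0.12), with 0 higher and 4 lower at the unadjusted level. Nr4a3 differed by 1.96 ± 0.94 (adjusted p = 0.321; 1.35 without Prep1deltaSM replicate 4, 0.73 with normexp and quantile normalization) and was well above background on 7 of the 8 arrays. The uncoupling protein Ucp3 differed by 0.54 ± 0.38, or by 0.21 without Prep1f/+ replicate 1. Egr1 differed by -1.55 ± 0.59 and the lipase inhibitor Angptl4 by -0.97 ± 0.32 (adjusted p = 0.229 and 0.186). Pdk4, the kinase that shuts pyruvate out of oxidation during fasting, ranged from 5.39 to 7.64 in Prep1f/+ and from 5.50 to 6.88 in Prep1deltaSM, a difference of -0.11 ± 0.50. The feeding state of the mice at sampling is not given in the sources used here.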

How the data were processed

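Spot intensity values (gProcessedSignal) came, per the file headers, from Feature Extraction 10.5.1.1 and protocol GE1_107_Sep09; the submitters' processing notes name version 9.1, and which made the values was not settled. Log2 intensity was taken relative to each array's 75th percentile, flagged spots were set missing, spots of a probe were averaged, and probes were kept where 4 or more arrays scored them well above background (24488 of 41174). Each probe was 1 row of lmFit and eBayes in limma 3.58.1 (R 4.3.3), p-values were adjusted by Benjamini-Hochberg over these rows, and the fit was tested on simulated data. The mice are separate animals, and the labels do not pair them. The 10 genes were taken by name. Other named genes were, per pathway list, the 2 with the largest difference in each direction by the brightest probe, plus Mybbp1a, Gabpb1, Polg, Polg2, Cycs, Cs, Pdk4 and the 5 most like Ppargc1a. Members and lists were chosen with earlier results of these data known. Endothelium and Schwann cell markers (median -0.05 and 0.15) and brown adipocyte markers (-0.13, Ucp1 not well above background) were also read. Alternatives were quantile normalization, normexp with an offset of 50 before it, median centring, other filters and probe rules, slide as a block, trended robust eBayes, array weights, flagged spots kept, each array left out, and the authors' deposited table of intensity values (32812 rows; 26248 differed by at most 0.1 log2 from scanner values after quantile normalization, with column medians of 12.7 to 13.2, so it is linear and not centred; how other rows were made is unknown).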

Additional observations from a re-analysis of the deposited data

Results flagged for a closer look

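In 2 of the 104 groups of 4 values examined, 1 array lay far from the other 3 by Dixon's ratio of gap to range, where chance gives about 5.2. Mb, the myoglobin gene, was lowest in Prep1f/+ replicate 3 (ratio 0.888), at a log2 signal of 9.46 against 9.96 to 10.02 in the other Prep1f/+ muscles. Angptl4, the lipase inhibitor gene, was lowest in Prep1f/+ replicate 2 (ratio 0.912), at 0.48 against 1.54 to 1.64. No probe of the 10 biogenesis regulators was among them.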

How the results depend on the processing

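No probe of the biogenesis regulators passed an adjusted p of 0.05 under any alternative run, and the smallest adjusted p was 0.070 (Tfb2m A_52_P69325, quantile normalization after normexp). The median difference of their probes ranged from -0.04 to 0.01 with each array left out and was 0.13 where each gene's probes were averaged. With that averaging 6 regulators were higher and 4 lower, and the median of all 16016 genes was -0.03. The number of all probes past the threshold was 341 with normexp and quantile normalization, 20 with trended robust eBayes, 2 with array weights, 0 without a filter, 0 with slide as a block and 0 to 6 with each array left out; the cause was not tested. Polrmt A_51_P484919 turned to 0.0065 under quantile normalization, to 0.0018 where normexp came first and to 0.0083 in the authors' deposited values, and Cs A_52_P182659 to 0.070 and 0.079 under the first 2. Averaging the probes of a gene turned Nrf1 to 0.13, Tfb2m to 0.16, Esrra to 0.22, Pnpt1 to 0.18 and Gabpb1 to 0.11, since this mixes probes that differ in sign. Gabpa A_52_P152283 turned to -0.016 with array weights. With each array left out, signs turned for Gabpa A_52_P126238 (-0.097 to 0.015), Gabpa A_52_P152283 (-0.057 to 0.091), Nrf1 A_52_P8430 (-0.16 to 0.012), Tfam A_51_P493720 (-0.020 to 0.091), Tfam A_52_P351785 (-0.055 to 0.13), Polrmt (-0.15 to 0.044), Cs (-0.058 to 0.046), Pdk4 (-0.49 to 0.26), Ppargc1a A_51_P279038 (-0.052 to 0.50) and Ppargc1a A_52_P5945 (-0.087 to 0.46). The same held for the upstream minus downstream values of Tfam (-0.078 to 0.081) and Ppargc1a (-0.036 to 0.085). Those comparisons were chosen after seeing the data; with normexp and quantile normalization 20 genes passed, where 0 did before, and the median over all 4071 was 0.041, against 0.11. The labels pair no mice by number. With the slide as a block, the one pairing that the arrays give, 0 probes passed. The regulators then had 2 probes higher and 1 lower at an unadjusted limma p under 0.05, beside 2299 and 1957 of all 24488 probes. Of the values of named probes, 28 moved by over 1.5 times without a change of sign under normexp and quantile normalization, and 7 to 16 with each array left out. The 8 arrays limit the precision, and the regulators' processed signals ran from 14.0 at an Nrf1 probe to 31800 at a Tfam probe.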
